A study of Homo sapiens with 12 samples.

Results

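The genes described here are 9 neuroendocrine (NE) markers and the factors that govern them, namely NEUROD1, INSM1, POU3F2, REST, CHGA, CHGB, SCG2, SYP and ENO2. They were chosen by symbol, and each of the 9 was found once among the 28008 genes of the silencing experiment and once among the 25435 genes of the overexpression experiment. The study asked how MUC1-C, the transmembrane C-terminal subunit of the mucin MUC1, bears on drug-resistant prostate cancer, and RNA-seq of 12 libraries in 2 experiments was used, with 3 libraries per group. LNCaP is a prostate cancer line of luminal character. In the silencing experiment, LNCaP-ER cells, which were LNCaP cells selected for growth in enzalutamide, a drug used against prostate cancer, carried a doxycycline (DOX) inducible MUC1 shRNA (tet-MUC1shRNA) in both groups and received vehicle (0.1% DMSO) or 500 ng/mL DOX for 7 days. A DOX-treated control shRNA group was not analysed here, so DOX itself and the shRNA cannot be told apart. The overexpression experiment set LNCaP/MUC1-C OE cells, in which MUC1-C came from a lentiviral vector, against LNCaP cells. The labels call the LNCaP controls wild-type and the count columns call them vector, and whether they carried an empty vector is not settled. The titles of the LNCaP/MUC1-C OE libraries also put sh before MUC1-C, a prefix the study does not use for these cells. Whether either line was 1 clone was not stated.

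NE cells store peptide hormones in dense-core granules together with chromogranins and secretogranins, and carry smaller vesicles marked by synaptophysin. In prostate tumours that progress after treatment, such markers can appear under the control of neural transcription factors, whereas REST represses neuronal genes in most other cells through a DNA element called RE1. CHGA, SYP and ENO2 are among the markers by which pathologists recognise these tumours.

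The promoters of CHGA, ENO2 and SYP are shown because the protein products of these genes are the classical tissue markers of NE differentiation. Each window runs from 250 bases before to 50 bases after a transcript start, 5′ to 3′ on the gene's own strand, from RefSeq on GRCh38.p14. CHGA lies at chr14:92922900-92923199 on the plus strand, ENO2 at chr12:6914330-6914629 on the plus strand and SYP at chrX:49200144-49200443 on the minus strand. Capitals mark the cAMP response element TGACGTCA, the element bound by CREB.
CHGA: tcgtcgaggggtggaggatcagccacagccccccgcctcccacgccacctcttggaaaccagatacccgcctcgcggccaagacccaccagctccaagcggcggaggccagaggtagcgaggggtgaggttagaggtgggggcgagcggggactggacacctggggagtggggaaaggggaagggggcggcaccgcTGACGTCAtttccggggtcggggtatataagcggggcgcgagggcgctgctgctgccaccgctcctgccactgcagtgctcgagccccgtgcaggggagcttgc
ENO2: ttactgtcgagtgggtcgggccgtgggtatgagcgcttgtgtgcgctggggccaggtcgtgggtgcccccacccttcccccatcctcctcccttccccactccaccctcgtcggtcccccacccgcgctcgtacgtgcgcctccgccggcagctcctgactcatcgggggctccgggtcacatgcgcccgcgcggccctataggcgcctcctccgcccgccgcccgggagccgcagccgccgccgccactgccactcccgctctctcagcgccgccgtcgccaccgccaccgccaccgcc
SYP: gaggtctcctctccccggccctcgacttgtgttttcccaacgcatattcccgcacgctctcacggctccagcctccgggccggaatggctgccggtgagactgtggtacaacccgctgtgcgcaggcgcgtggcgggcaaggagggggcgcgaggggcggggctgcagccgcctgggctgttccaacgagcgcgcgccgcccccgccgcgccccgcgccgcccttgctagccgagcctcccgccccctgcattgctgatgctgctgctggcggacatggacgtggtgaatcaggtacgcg
The element TGACGTCA, which reads the same on both strands, was present in the CHGA window at bases -54 to -47 from the start and in 1.85% of all 35116 windows. It was in no other window of the 6 members with one, which were NEUROD1, REST, POU3F2, ENO2, CHGA and SYP. The left part of the RE1 element, TTCAGCACC, was searched on both strands and was in none of these members' windows and in 0.376% of all windows. Its right part, GGACAG, was in a REST window and in 20.5% of all windows. INSM1, CHGB and SCG2 had no window.

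The libraries held 28045894 to 45807989 counts in the silencing experiment, 18017941 to 19208944 in LNCaP and 13806856 to 17583673 in LNCaP/MUC1-C OE. MUC1, the targeted gene, had 26, 10 and 13 counts in vehicle, and the libraries labelled DOX had 3, 42 and 8 for replicates 1, 2 and 3. In DOX replicate 2 the MUC1 count was thus above every vehicle count, which goes against that label, and labels alone name the DOX libraries below. MUC1 did not pass the test in this experiment (log2 fold change 0.12, SE 0.93, adjusted p = 0.935, edgeR's quasi-likelihood test), nor without the library labelled DOX replicate 2 (-1.83, adjusted p = 0.0617, edgeR). The library labelled DOX replicate 2 also stood apart in what it detected: 11.2% of genes were at 0 there, against 28.0% to 38.1% in the other 5 libraries. Of 36 genes of other tissues, among them markers of liver, blood, muscle, endothelium and glia, 35 had a count there and 14 to 23 in each of the others, and their summed level was 191 CPM (the count scaled to a common library total) against 142 to 176 CPM. Vehicle replicate 1 also differed from its group in the chi-square per degree of freedom between replicate counts, a measure of their spread. It was 40.7 and 39.7 against vehicle replicates 2 and 3, and 4.81 between the latter. In DOX it was 41.2 and 49.8 for replicate 2 against replicates 1 and 3, and 18.9 between the latter. The source of these differences was not tested. In the overexpression experiment, MUC1 had 30, 25 and 31 counts in LNCaP and 9168, 9959 and 12622 in LNCaP/MUC1-C OE. The labelled LNCaP identity was checked with 15 luminal prostate genes. Their summed level was 8283 to 10175 CPM in the LNCaP-ER libraries, 507 to 534 CPM in LNCaP and 170 to 189 CPM in LNCaP/MUC1-C OE. KLK3, the gene of prostate-specific antigen, had 432 to 514 counts in LNCaP and 0 in each LNCaP/MUC1-C OE library. MUC1-C and other differences between these cell populations therefore cannot be told apart in the overexpression results.

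**Figure D1:**
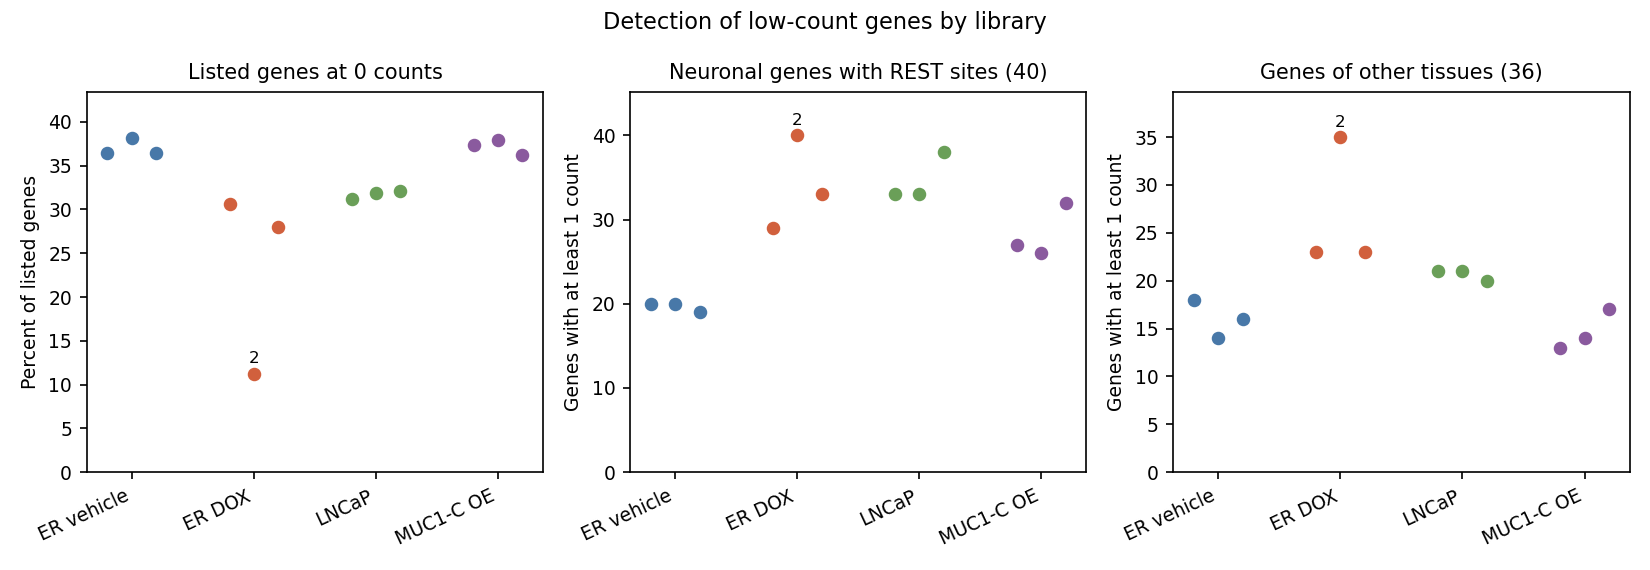
Percentage of genes listed at 0 (left) and number of genes with a count among 40 neuronal and 36 other-tissue genes (right) in each library. The library labelled DOX replicate 2 has the fewest genes at 0, at 11.2%, with all 40 neuronal genes and 35 other-tissue genes detected.

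In the silencing experiment, 4 of the 9 members (POU3F2, SYP, ENO2 and REST) had enough counts to be tested and 0 were called, where a call is a Benjamini-Hochberg adjusted p under 0.05 in edgeR's quasi-likelihood test over all genes. Over all 14683 genes tested, 27.3% were called. At an unadjusted p under 0.05, 1 member (SYP) passed. DESeq2 called 1 of 6, CHGA, and 4546 genes among the 25480 with a count. NEUROD1, INSM1, CHGA, CHGB and SCG2 did not pass the filter on low counts, and for these the counts themselves are given.

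Among the transcription factors, NEUROD1, a basic helix-loop-helix factor of neurons and endocrine cells, was listed at 0 in all 3 vehicle libraries and had 3, 4 and 0 counts in DOX replicates 1, 2 and 3. INSM1, a zinc-finger factor of NE differentiation, was at 0 in all vehicle libraries, and had 0, 22 and 2 counts in the DOX libraries. The 22 counts made up 91.7% of the DOX total. A count of 0 allowed a level of up to 0.0807 to 0.102 CPM in single vehicle libraries, taking 3 counts as the floor, which covers counting error only. The groups overlapped for both genes, and outside the library labelled DOX replicate 2 no library of this experiment exceeded 3 counts for either.

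POU3F2 encodes the neural POU-domain factor BRN2. It had 12, 15 and 6 counts in vehicle and 12, 5 and 2 in DOX, or 0.347 ± 0.151 and 0.192 ± 0.162 CPM (SD, n = 3). The values overlapped. The log2 fold change was -0.89 with a 95% confidence interval of -2.73 to 0.95 (adjusted p = 0.451, edgeR's quasi-likelihood test), so a change of either sign was not detectable at this depth.

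REST, the repressor of neuronal genes, was by far the most abundant member here. Its counts were 4808, 3663 and 3533 in vehicle and 4230, 3306 and 6014 in DOX, which gave 126 ± 1.65 and 123 ± 10.2 CPM (SD, n = 3). The lowest and the highest normalized level were both in DOX libraries, in replicates 2 and 3. The log2 fold change was -0.03 with an interval of -0.24 to 0.17 (adjusted p = 0.817, edgeR's quasi-likelihood test), and its sign turned to 0.07 without the library labelled DOX replicate 2.

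The granins, acidic proteins that aid hormone packing into dense-core granules, were close to absent. CHGA had 0 counts in every vehicle library and 1, 29 and 1 in the DOX libraries. The library labelled DOX replicate 2 held 93.5% of the CHGA counts. DESeq2 gave CHGA an adjusted p of 0.0482, edgeR's quasi-likelihood test without the low-count filter gave 0.0712, and with 2 counts left in the other DOX libraries no fold is given. CHGB had 0, 0 and 2 counts in vehicle and 0, 10 and 5 in DOX. SCG2, the secretogranin II precursor, had 1, 0 and 7 counts in vehicle and 1, 4 and 3 in DOX. The CHGB and SCG2 groups overlapped.

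SYP, a membrane protein of small vesicles, had 22, 14 and 22 counts in vehicle and 46, 62 and 44 in DOX. The lowest DOX level, 0.949 CPM, lay above the highest vehicle level, 0.782 CPM, and 21.2% of all genes tested had DOX groups wholly above vehicle. Mean levels were 0.614 ± 0.155 and 1.48 ± 0.574 CPM (SD, n = 3). The log2 fold change of 1.26 (SE 0.48, interval 0.17 to 2.35) missed the threshold after adjustment (adjusted p = 0.0831, edgeR's quasi-likelihood test). Without the library labelled DOX replicate 2 the log2 fold change was 0.96 (adjusted p = 0.121, edgeR). When genes under 10 counts in any library were left out, SYP passed with an adjusted p of 0.0495 by the same edgeR test.

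ENO2 encodes neuron-specific enolase, the neuronal isoform of a glycolytic enzyme. It had 236, 98 and 168 counts in vehicle and 168, 558 and 286 in DOX. DOX replicates 1 and 3, at 5.09 and 6.17 CPM, lay within the vehicle range of 3.33 to 6.27 CPM, and the library labelled DOX replicate 2 stood at 18.8 CPM. The log2 fold change was 0.94 (SE 0.48, interval -0.15 to 2.02, adjusted p = 0.176, edgeR's quasi-likelihood test) with all libraries and 0.15 (adjusted p = 0.707) without that library. On log2(TPM + 1) values limma called ENO2 at 0.93 (adjusted p = 0.00270). In that scale RN7SK, a small nuclear RNA, held 351696 to 376530 TPM (length-scaled transcript shares) in vehicle and 245958 to 314223 TPM in DOX, and 95.2% of the genes called by limma were higher.

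The library labelled DOX replicate 2 held the highest level of 6 of the 9 members, or 66.7%. It did so for 52.1% of the 25480 genes with a count and for 80.5% of the genes with a mean under 1 CPM. Its part in the member differences beyond the values without it was not tested.

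**Figure D2:**
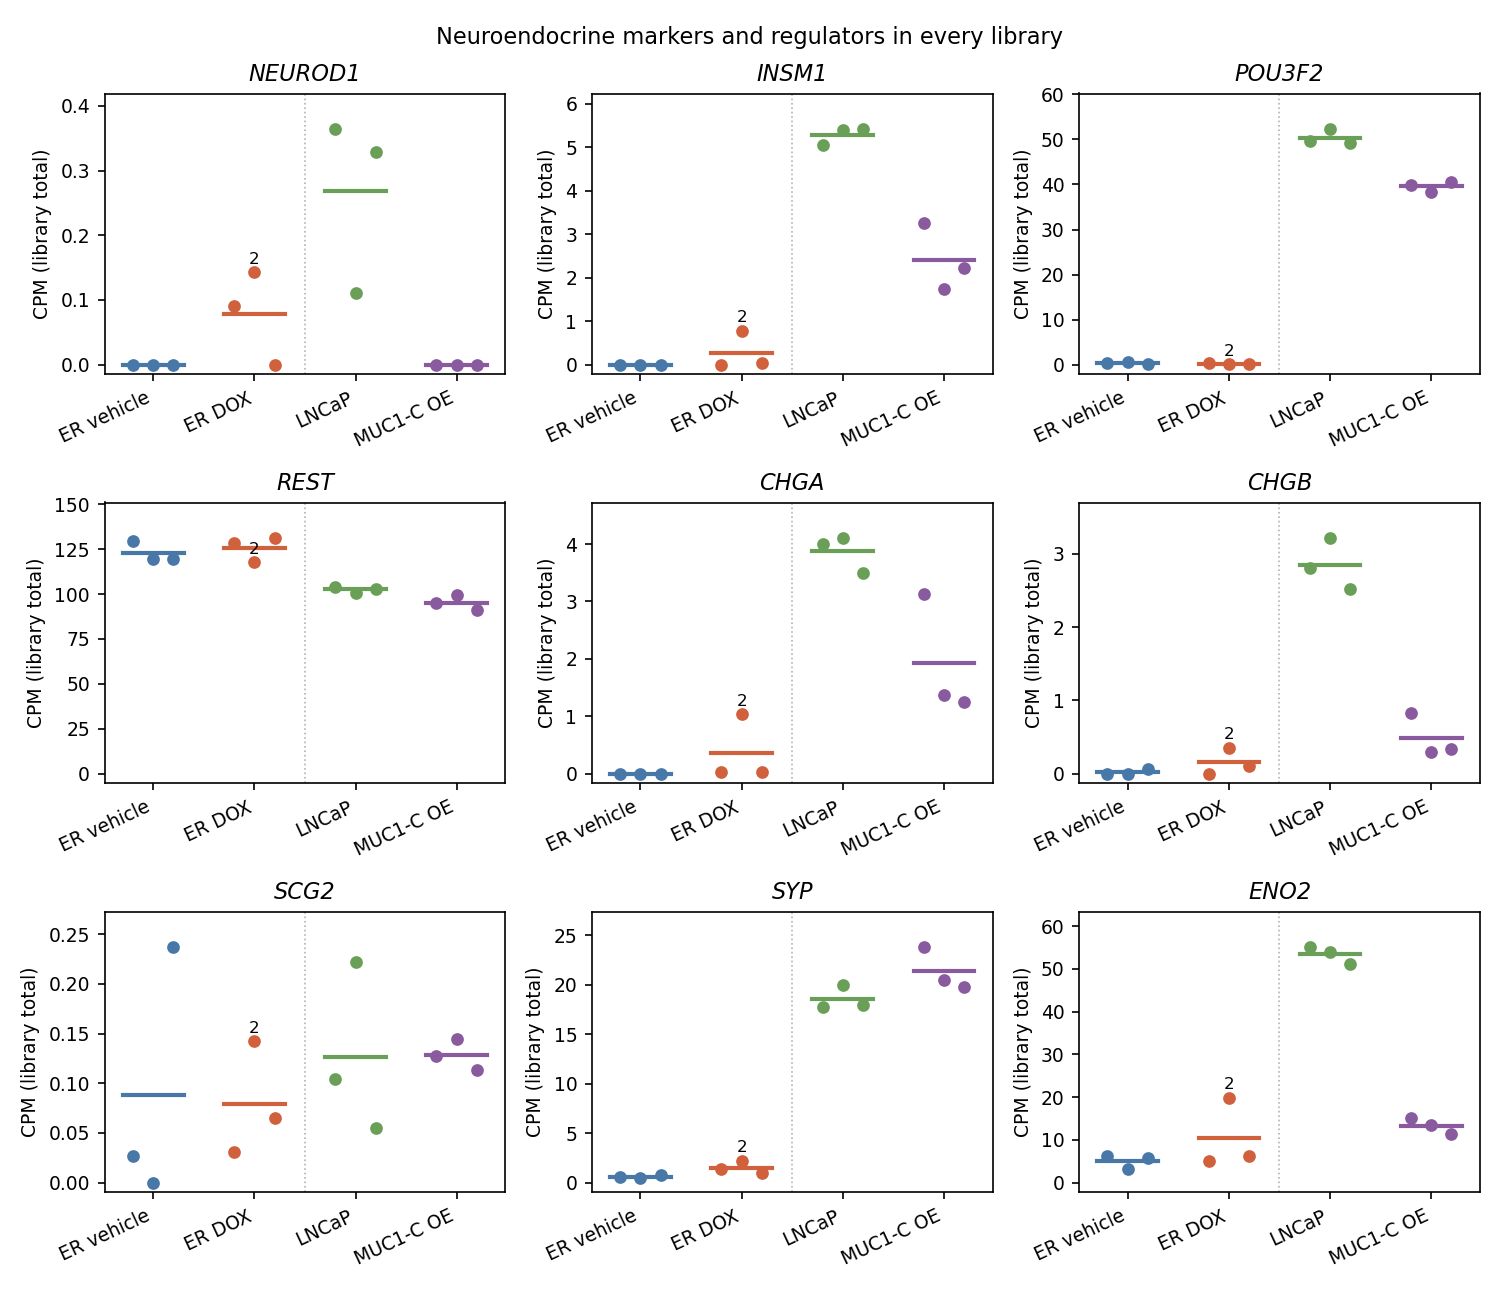
Level of each of the 9 members in each of the 12 libraries, in CPM of the library total, with group means as lines. The number 2 marks the library labelled DOX replicate 2, which is highest for INSM1, CHGA, CHGB, ENO2, SYP and NEUROD1 among the silencing libraries.

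In the overexpression experiment, 7 of the 9 members were tested and 6 were called, 5 lower and 1 higher in LNCaP/MUC1-C OE. Over all 13836 genes tested, 67.3% were called, 34.1% lower and 33.2% higher, so most genes differed between these cells. LNCaP/MUC1-C OE levels lay wholly below LNCaP in 35.9% of these genes and wholly above in 34.4%, so separated groups were common. When libraries were scaled by their totals only, the median of all genes shifted by -0.15 on the log2 scale and the share of higher calls went from 49.4% to 32.3% of calls.

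NEUROD1 had 7, 2 and 6 counts in LNCaP and 0 in all 3 LNCaP/MUC1-C OE libraries. The groups did not overlap. Against a floor of 3 counts over the group, the level normalized by TMM, the library scaling used in edgeR, was 3.81-fold lower. This value takes the 15 LNCaP counts as exact, so it is not a strict lower bound on the fold. NEUROD1 was below the count filter. Without that filter the adjusted p was 0.00147 in edgeR's quasi-likelihood test.

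INSM1 had 97, 97 and 99 counts in LNCaP and 51, 24 and 39 in LNCaP/MUC1-C OE. Every LNCaP/MUC1-C OE (OE) level was below every LNCaP level, with means of 5.01 ± 0.205 and 2.54 ± 0.827 CPM (SD, n = 3). Its log2 fold change was -0.97 (SE 0.19, adjusted p = 2.75e-04, edgeR's quasi-likelihood test).

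POU3F2 had 954, 943 and 899 counts in LNCaP and 624, 530 and 712 in LNCaP/MUC1-C OE, giving 47.8 ± 1.70 and 41.8 ± 1.08 CPM (SD, n = 3). The groups did not overlap, but the difference was small, with a log2 fold change of -0.19 (SE 0.06, adjusted p = 0.0103, edgeR's quasi-likelihood test). It lost the call without LNCaP replicate 2 (-0.16, adjusted p = 0.0570, edgeR).

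REST had 1998, 1817 and 1883 counts in LNCaP and 1485, 1370 and 1600 in LNCaP/MUC1-C OE. The levels of 97.4 ± 1.30 and 100.3 ± 4.57 CPM (SD, n = 3) overlapped. The log2 fold change of 0.04 had an interval of -0.07 to 0.15 (adjusted p = 0.486, edgeR's quasi-likelihood test) and became -0.11 when scaled by library totals only.

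Both chromogranins were lower in LNCaP/MUC1-C OE. CHGA, whose cleavage yields several peptides, had 77, 74 and 64 counts in LNCaP and 49, 19 and 22 in LNCaP/MUC1-C OE. OE replicate 1, at 3.31 CPM, nearly reached the lowest LNCaP library, at 3.32 CPM, while the other OE libraries lay at 1.45 and 1.32 CPM. CHGA had a log2 fold change of -0.86 (SE 0.27, adjusted p = 0.00959, edgeR's quasi-likelihood test). It was -0.59 without OE replicate 3 (adjusted p = 0.0704, edgeR), which lost the call, and -1.41 without OE replicate 1. CHGB had 54, 58 and 46 counts in LNCaP and 13, 4 and 6 in LNCaP/MUC1-C OE, clearly separated, at 2.70 ± 0.338 and 0.515 ± 0.317 CPM (SD, n = 3). This was a 5.18-fold lower level (log2 fold change -2.37, SE 0.31, adjusted p = 3.11e-06, edgeR's quasi-likelihood test). SCG2 had 2, 4 and 1 counts in LNCaP and 2 in each OE library, too few to test.

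SYP was the only member called higher in LNCaP/MUC1-C OE. Its counts were 342, 360 and 328 in LNCaP and 373, 283 and 348 in LNCaP/MUC1-C OE, and after normalization the OE libraries, at 20.8 to 25.2 CPM, all lay above LNCaP, at 16.8 to 19.0 CPM. SYP had a log2 fold change of 0.36 (SE 0.09, adjusted p = 0.00231, edgeR's quasi-likelihood test). With scaling by library totals only it was 0.20 and lost the call (adjusted p = 0.0568, edgeR).

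ENO2 had the lowest adjusted p of the members. It had 1059, 973 and 935 counts in LNCaP and 236, 186 and 200 in LNCaP/MUC1-C OE, with no overlap. The mean fell from 50.7 ± 1.89 to 14.0 ± 2.01 CPM (SD, n = 3), 3.62-fold lower, with a log2 fold change of -1.86 (SE 0.09, adjusted p = 6.30e-12, edgeR's quasi-likelihood test).

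**Figure D3:**
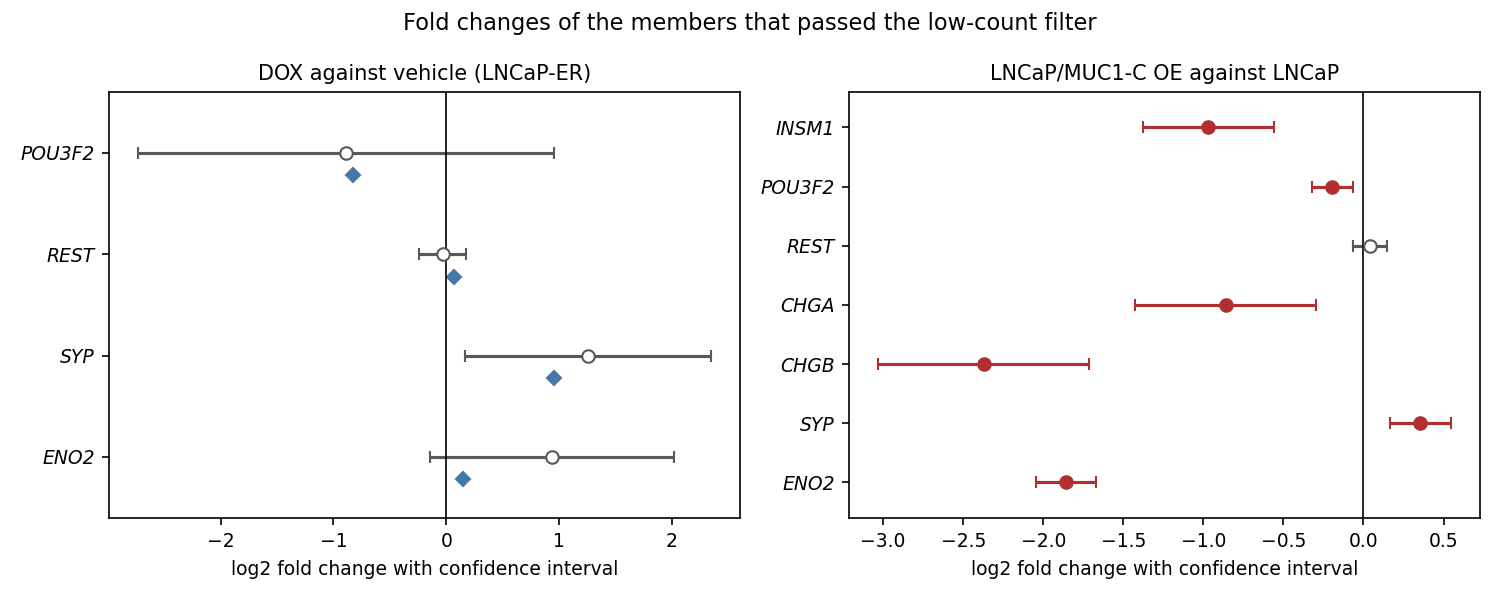
Log2 fold change of each member that was tested, DOX over vehicle (left) and LNCaP/MUC1-C OE over LNCaP (right), with 95% confidence intervals. Filled red points have an adjusted p under 0.05 in edgeR's quasi-likelihood test, and blue diamonds leave out the library labelled DOX replicate 2, where ENO2 moves from 0.94 to 0.15.

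Across the 4 groups the members kept no single order. The 2 tables were counted separately and no test was made between them, so levels scaled by library total are set side by side for each gene. REST lay at 123 CPM in vehicle, 126 CPM in DOX, 103 CPM in LNCaP and 95.0 CPM in LNCaP/MUC1-C OE. ENO2 was at 53.4 CPM in LNCaP, 13.3 CPM in LNCaP/MUC1-C OE, 10.4 CPM in DOX and 5.08 CPM in vehicle, where the last 2 overlapped. POU3F2 was at 50.4 and 39.6 CPM in LNCaP and LNCaP/MUC1-C OE but at 0.338 and 0.195 CPM in vehicle and DOX. SYP had 21.4 CPM in LNCaP/MUC1-C OE, 18.6 CPM in LNCaP, 1.52 CPM in DOX and 0.598 CPM in vehicle. INSM1, at 5.28 and 2.41 CPM, and CHGA, at 3.87 and 1.92 CPM, were likewise higher in the LNCaP and OE libraries than the 0.276 and 0.362 CPM reached in DOX, and both were at 0 in every vehicle library. SCG2 was at 0.129 CPM or less on average in every group. On the length-scaled TPM of vehicle cells, REST was at 10.6, ENO2 at 1.47, SYP at 0.170 and POU3F2 at 0.0554 TPM, so these 4 genes kept this order after length was accounted for.

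The genes whose level moved most like a member over the 12 libraries, each experiment centred on its own mean, were C1GALT1 (Pearson r = 0.96) and RRAGB (0.94) for SYP, LOC100506990 (0.98) and STAG3L4 (0.97) for ENO2, and MTMR1 (0.94) and DHRS4L2 (0.93) for REST. They were the closest of 11678 genes, and the libraries share groups and depth, so these r values are descriptions.

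The wider NE programme and its regulators were followed through 6 lists of 187 genes outside the members. They hold REST corepressors and mixed regulators beside NE genes, so pooled totals do not give the direction of NE genes alone. A gene can pass the low-count filter through a single group where it is high, which can push list calls and medians towards that group. In the silencing experiment 102 of the 187 list genes were tested and 34 were called, 12 lower (11.8% of those tested) and 22 higher (21.6%), against 14.5% lower and 12.8% higher over all genes tested. REST corepressors and stability factors gave 3 of the lower calls and 2 of the higher, and other NE markers and regulators 7 and 2. With library totals only, 59.6% of all calls were higher in place of 46.8%.

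NE transcription factors were mostly too low to test: 11 of 30 were tested, and 1 fell and 2 rose, with a median log2 fold change of 0.18 against -0.02 over all genes. Without the library labelled DOX replicate 2, 3 fell and 1 rose, against 17.3% lower and 18% higher over all genes tested in that fit. That library had a count for all 30 factors, the others for 13 to 23, and a summed level of 210 CPM against 125 to 136 CPM. SOX11, a neural SRY-box factor, fell from 390, 254 and 299 counts to 112, 159 and 138 (log2 fold change -1.34, adjusted p = 0.00530, edgeR's quasi-likelihood test). POU2F3, which marks tuft-like cells, rose from 77, 103 and 84 counts to 135, 187 and 231 (0.85, adjusted p = 0.0495, edgeR), and had an adjusted p of 0.0785 without that library.

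Of 24 granule cargo and prohormone-processing genes, 7 were tested and 3 rose. Without the library labelled DOX replicate 2, 8 were tested, 2 fell and 3 rose. Among them PCSK1N, an inhibitor of prohormone convertase 1, went from 336, 335 and 329 counts to 712, 744 and 930 (log2 fold change 1.06, adjusted p = 0.00218, edgeR). VGF, a granule peptide precursor, went from 32, 52 and 30 to 69, 140 and 164 counts (1.49, adjusted p = 0.0275, edgeR). Both separated the groups with and without the library labelled DOX replicate 2.

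Of 36 synaptic vesicle and exocytosis genes, 24 were tested, 1 fell and 7 rose, and the same numbers held without that library. SYNGR3, a synaptogyrin, rose from 34, 33 and 27 counts to 75, 103 and 151 (log2 fold change 1.59), and its relative SYNGR1 fell from 434, 417 and 337 to 215, 217 and 250 (-0.97). UNC13B, a vesicle priming factor, rose from 95.0 to 173 CPM (0.86), and CPLX1, which clamps vesicle fusion, from 7.78 to 12.1 CPM (0.64).

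Among 27 REST corepressors and stability factors, 24 were tested, 3 fell and 2 rose. Without the library labelled DOX replicate 2, 3 fell and 8 rose, and with library totals only 3 fell and 6 rose. RCOR3, of the CoREST family, fell from 96.1 to 60.0 CPM (log2 fold change -0.68, adjusted p = 0.00440, edgeR). EHMT2, a histone H3 methyltransferase, fell by 0.51 on the log2 scale, and L3MBTL2 rose by 0.51 on that scale.

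Of 40 neuronal genes with described REST sites, 11 were tested and 6 rose, with a median log2 fold change of 0.84. Genes such as L1CAM, low in vehicle, could pass the filter through DOX alone, so this median covers a selected part of the list. Without the library labelled DOX replicate 2, 4 rose. The summed level of the list was 78.0 to 84.3 CPM in vehicle and 127, 194 and 155 CPM in DOX replicates 1, 2 and 3. All 40 had a count in DOX replicate 2, against 19 to 33 in the other libraries, and 36 of 40 were highest there. TUBB3, a neuronal tubulin, rose from 308, 137 and 120 counts to 681, 477 and 1388 (log2 fold change 1.95, adjusted p = 0.00272, edgeR's quasi-likelihood test). L1CAM, a neural adhesion molecule, rose from 22, 4 and 8 counts to 59, 103 and 113 (2.89), and DISP2 rose from 77, 76 and 33 to 143, 180 and 217 (1.37). These 3 rises kept an adjusted p of 9.39e-04, 0.00539 and 0.0170 without that library (edgeR).

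Other NE tumour markers and regulators gave 7 lower and 2 higher of 25 tested, and 8 lower and 5 higher without that library. PEG10, a retrotransposon-derived gene of NE prostate cancer, fell from 299, 117 and 102 counts to 27, 53 and 36 (log2 fold change -2.22). SLC7A11, the cystine transporter, fell from 618 to 160 CPM (-1.95), and ENO3, the muscle enolase, from 8.57 to 3.69 CPM (-1.22). CCND1, cyclin D1, rose from 305 to 426 CPM (0.48).

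With MUC1-C overexpression, 136 of the 187 genes were tested and 103 were called, 59 lower (43.4% of those tested) and 44 higher (32.4%), against 34.1% and 33.2% over all genes tested. REST corepressors and stability factors gave 4 of the lower calls and 15 of the higher, and other NE markers and regulators 10 and 15. Of 18 NE transcription factors tested, 9 were lower and 5 higher, with a median log2 fold change of -0.24. PROX1, a homeobox factor, had 194, 185 and 205 counts in LNCaP and 33, 39 and 24 in LNCaP/MUC1-C OE (-2.20). NKX2-1 had 66, 65 and 63 against 10, 22 and 11 counts (-1.77), and HES6, a neurogenic HES factor, was also lower (-1.06). ISL1, a LIM-homeobox factor, went the other way, with 154, 155 and 137 counts against 254, 223 and 266 (1.13, adjusted p = 2.23e-08, edgeR). POU3F1, a relative of POU3F2, was higher at 2.43 against 1.45 CPM (0.74), as was MYCL at 9.25 against 6.81 CPM (0.45).

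All 7 granule genes tested were called, 6 lower and 1 higher. NTS, the neurotensin precursor, had 44, 28 and 32 counts in LNCaP and 14, 12 and 21 in LNCaP/MUC1-C OE (log2 fold change -0.75). PCSK1N, which was higher in DOX, was lower here (-0.42), as was CPE, carboxypeptidase E (-0.26). PAM, the peptide-amidating enzyme, was higher (0.33, adjusted p = 2.45e-05, edgeR).

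Of 31 synaptic vesicle genes, 19 were lower and 3 higher. SNAP25, a SNARE protein of exocytosis, had 141, 134 and 120 counts in LNCaP and 5, 2 and 4 in LNCaP/MUC1-C OE. SYT4, a synaptotagmin, had 94, 75 and 63 against 0, 0 and 1, and RAB3C had 63, 84 and 83 against 3, 2 and 0. SYT5 moved the other way, from 4, 6 and 2 counts to 121, 68 and 100. Smaller differences were seen for VAMP1 (log2 fold change 0.64) and RAB3D (0.27, or 0.12 and not called with library totals only).

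Of 26 REST corepressors and stability factors tested, 15 were higher and 4 lower, but with library totals only 4 were higher and 7 lower, so the balance of this list turned with the scaling. RCOR3 was at 25.5 ± 1.11 CPM in LNCaP and 59.5 CPM in LNCaP/MUC1-C OE (log2 fold change 1.22, adjusted p = 3.46e-11, edgeR). KDM1A, the histone demethylase of the CoREST complex, rose from 207 to 366 CPM (0.82), and SIN3A, a scaffold of histone deacetylase complexes, from 145 to 208 CPM (0.52). FBXW11, an F-box protein of ubiquitin ligases, was lower (-0.48), as was the phosphatase CTDSPL (-0.16). The splicing factor SRRM3 was also called lower (-0.38, adjusted p = 0.0432, edgeR), but its groups overlapped.

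Neuronal genes with described REST sites gave 11 lower and 5 higher of 25 tested. NEFM, a neurofilament subunit, had 303, 329 and 300 counts in LNCaP and 1, 1 and 2 in LNCaP/MUC1-C OE. NTRK3, a neurotrophin receptor, had 58, 51 and 45 against 0, 1 and 3, and the sodium channel gene SCN2A had 469, 439 and 444 against 28, 22 and 27. DCX, a microtubule protein of migrating neurons, had 0, 0 and 2 counts in LNCaP and 41, 35 and 28 in LNCaP/MUC1-C OE. CELSR3 (log2 fold change 0.53) and MAPK8IP2 (0.42) were higher. The summed level of the list was 244 to 249 CPM in LNCaP and 183 to 192 CPM in LNCaP/MUC1-C OE.

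Other NE markers gave 10 lower and 15 higher of 29, and 12 lower and 10 higher with library totals only. GAP43, a growth-cone protein, had 59, 72 and 53 counts in LNCaP and 1, 2 and 5 in LNCaP/MUC1-C OE, GFRA1 was lower (log2 fold change -1.81), and RB1, the retinoblastoma tumour suppressor, was lower at 130 against 230 CPM (-0.82). SLC7A11 had 243, 211 and 202 counts against 4616, 1555 and 1723, WWTR1 was higher (1.34), and ENO1, the ubiquitous enolase, rose from 1462 to 2320 CPM (0.67) where ENO2 fell.

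The luminal prostate list, given as a check of cell identity, had 2 genes lower and 8 higher of 15 in the silencing experiment, and 12 lower and 1 higher of 15 in the overexpression experiment. In the former KLK3, KLK2 and NDRG1 rose by log2 fold changes of 1.18, 1.41 and 2.30, while FOXA1 (-0.59) fell. In the latter KLK3 and FOLH1 were at 0 in every OE library and TMPRSS2 had 1 count there against 167, 199 and 161, and NDRG1 was higher (0.48). Genes of other tissues gave 1 lower and 3 higher of 10 tested in the silencing experiment. There CD68 rose from 277, 154 and 202 counts to 754, 608 and 1022 (1.72), TTR (1.26) and ACTA2 (0.77) also rose, and MBP fell by 0.47 on the log2 scale, a call lost with library totals only (adjusted p = 0.0632, edgeR). With MUC1-C overexpression 7 of the 36 were tested, and a gene could pass the filter through LNCaP alone. Of these 7, 6 were lower, among them ACTA2 (-3.21), LUM (-1.74) and CD68 (-1.05), and COL3A1 was higher (2.21). The summed level of this list was 93.6 to 95.8 CPM in LNCaP and 45.2 to 48.6 CPM in LNCaP/MUC1-C OE, and its part in the member differences was not tested.

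**Figure D4:**
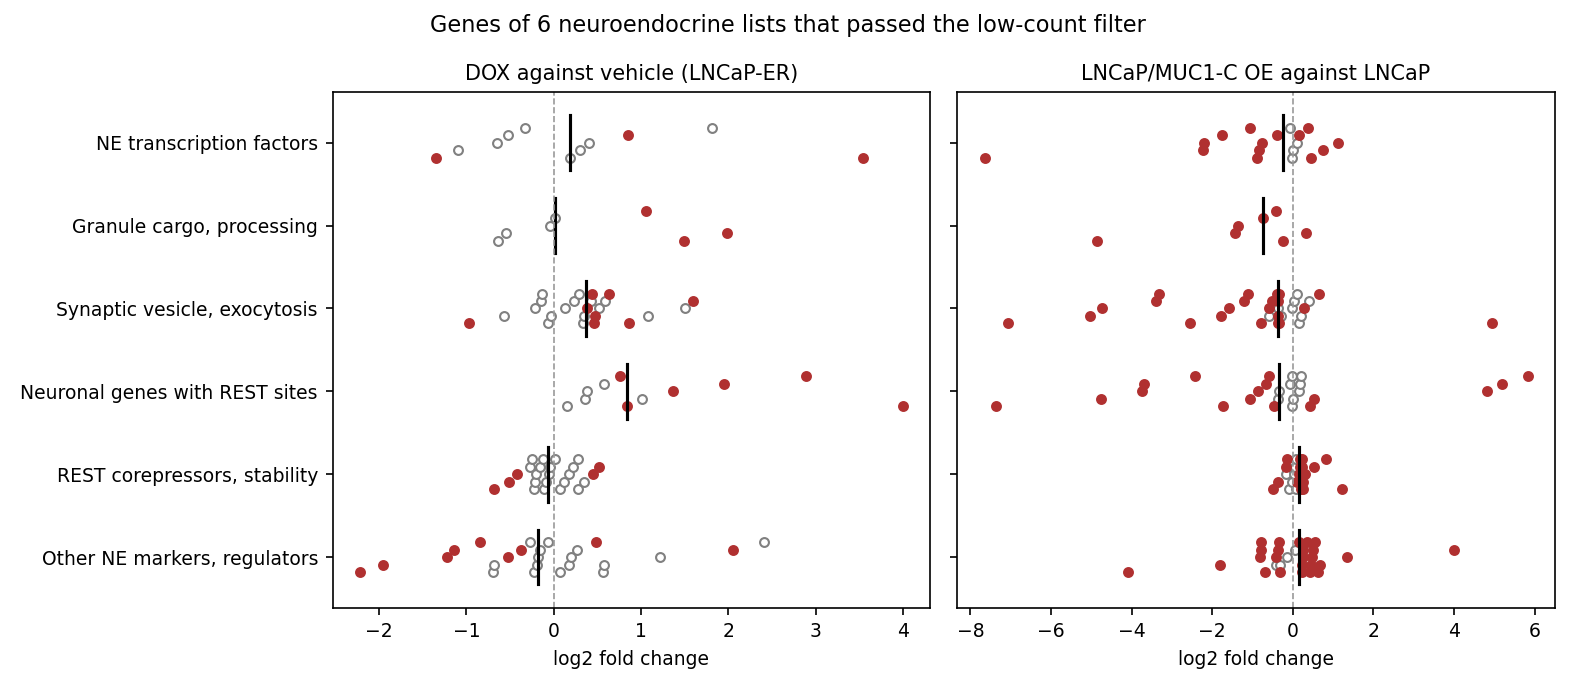
Log2 fold change of each tested gene in the 6 NE lists, DOX over vehicle (left) and LNCaP/MUC1-C OE over LNCaP (right), with black bars at the medians and genes called in red. The neuronal list has a median of 0.84 in silencing, and the granule list a median of -0.75 in overexpression, and fitted values of genes near 0 counts depend on the prior count. Medians cover only genes that passed the low-count filter, which a gene can do through the group where it is high.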

How the data were processed

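The authors prepared stranded mRNA libraries and deposited whole-number counts per gene symbol, without normalization. For the silencing experiment they also deposited TPM values. STAR, DESeq2 and GRCh38/hg38 are named in the submitters' processing notes. The counting tool, annotation and versions are not given in the sources used here, so how reads shared by overlapping genes or paralogs were assigned is unknown. Labels gave groups and replicate numbers. The overexpression table held 12 further columns of per-sample values, which were not used.

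Each experiment was fitted separately over all genes in edgeR 4.0.16 (R 4.3.3), with TMM normalization, the default low-count filter, a robust quasi-likelihood fit and Benjamini-Hochberg adjustment (threshold 0.05). The 6 libraries of that experiment entered. Standard errors are the log2 fold change over the root of F. CPM beside a test is TMM-normalized, and CPM between experiments uses library totals. Alternatives were DESeq2 1.42.0, other scalings and filters, leaving out each library, a replicate block, and limma 3.58.1 on log2(TPM + 1) or log2(TPM + 0.1) for genes with at least 1 TPM in 3 libraries. Only the main edgeR settings were tested on simulated counts, with the same dispersion for every gene and no aberrant library, a simpler case than these libraries.

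Named genes were the 9 members, MUC1, and per list and experiment up to 3 called genes in each direction with the largest change and a mean of at least 1 CPM. Some genes that this rule names are not reported here. The genes most like a member were the 2 non-members with the highest Pearson r. Members and lists were chosen with earlier results of these data known. Cells were cultured in triplicate per the labels, with no statement on separate experiments, so p-values measure the spread between these libraries, which may be technical. Counts carry no molecular identifiers, so floors cover counting error only.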

Additional observations from a re-analysis of the deposited data

How the results depend on the processing

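In the silencing experiment, 0 members were called by edgeR and 1 each by DESeq2 (CHGA), by edgeR on genes with at least 10 counts in every library (SYP) and by limma on log2(TPM + 1) and on log2(TPM + 0.1) (ENO2 in both). DESeq2 called 53 pathway genes in place of 34, 13 lower and 40 higher. Over all genes it called 4546 in place of 4006, with 54.3% of them higher in place of 46.8%. Leaving out 1 library gave 2002 to 5243 calls over all genes in place of 4006, with 2002, 2067 and 2200 without vehicle replicate 3, DOX replicate 3 and vehicle replicate 2, and 22 to 45 pathway genes, lowest without vehicle replicate 3. The cause of these differences was not tested. REST, near no change, turned from -0.03 to 0.038 with library totals only, ranged from -0.079 without DOX replicate 3 to 0.068 without DOX replicate 2, and turned to 0.48 and 0.52 in TPM with a pseudocount of 1 and 0.1. In the overexpression experiment REST turned from 0.04 to -0.11 with library totals only. MUC1 in the silencing experiment turned from 0.12 to -0.09 without vehicle replicate 2, and ranged from -1.83 without DOX replicate 2 to 0.62 without DOX replicate 1. POU3F2 in the silencing experiment fell under the count filter without DOX replicate 1. In the overexpression experiment 5 to 7 members were called under every alternative.

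Whether the replicate numbers pair the libraries is not known. Deviations of same-numbered libraries from their group means correlated at 0.0868, -0.00276 and -0.0739 in the silencing and -0.0292, -0.149 and -0.0374 in the overexpression experiment. Differently numbered libraries gave -0.0727 to 0.0981 in the silencing and -0.0606 to 0.104 in the overexpression experiment. Deviations within a group sum to 0, so these values are not independent, and a shared batch was not tested. With the replicate block, 0 and 6 members, 41 and 103 pathway genes and 4226 and 8965 genes were called in the silencing and overexpression experiments, and MUC1 in the silencing experiment turned to -0.62. NEUROD1, INSM1, CHGA, CHGB and SCG2 had 0 to 5 counts in most silencing libraries, so their differences could not be measured there at this count.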
